A study of Homo sapiens with 8 samples.

Results

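The primary response to TNF-α is described here as the difference between 2 arrays of NS-SV-AC cells at 2 h. NS-SV-AC is an immortalised acinar cell line of the human salivary gland, and acinar cells are the secretory cells of that gland. One array was hybridised with RNA of cells kept for 2 h with TNF-α at 20 ng/ml, and the other with RNA of cells given bovine serum albumin (BSA), the control protein, for the same time. The series holds 8 arrays, 1 for each treatment at 2, 6, 12 and 24 h, and the arrays at 6 and 12 h were used only to see which differences were still there. All 8 arrays share the cell line, which is 1 immortalised line, and no array has a replicate, so no value at 2 h has an error and no test of the 2 h difference exists.

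Levels are deposited log2 values per probe set, so a difference of 1 is a 2-fold difference. A gene was taken as higher or lower at 2 h where over 50% of its probe sets differed by at least 1 in the same direction. Of 18239 genes measured by 45253 probe sets with 1 gene symbol, 57 were higher with TNF-α (0.313% of genes) and 6 were lower (0.0329%), which gives 63 genes in all. The difference of a gene is the median over its probe sets, and its level is that of its brightest probe set, so the 2 quantities need not match where a gene has several probe sets. Levels of different probe sets are not compared with each other, apart from their place against the median or quartiles of the array.

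TNF-α binds the receptor TNFRSF1A on the cell surface, and the receptor complex activates the kinases that mark IκB proteins for destruction. NF-κB dimers held in the cytoplasm by IκB then enter the nucleus and bind κB sites near their target genes. Genes that need no newly made protein are transcribed first, among them chemokines, immediate early transcription factors and the genes of NF-κB's own inhibitors, which shut the signal down again. In salivary glands TNF-α is known from the inflammation of Sjögren's disease, where it is made by infiltrating leukocytes and by the epithelium itself.

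The promoters of CCL20, TNFAIP3, CXCL8 and CXCL2 are shown because these were the 4 genes of the NF-κB, chemokine and cytokine lists with the largest differences at 2 h among those whose promoter holds a κB motif. Each line gives the 250 bases before the annotated start, 5′ to 3′ on the strand of the gene, from RefSeq on GRCh38.p14. Capitals mark matches to the motif GGNNNTTCC or to the 10-letter κB consensus on either strand. The windows are chr2:227813592-227813841 on the plus strand for CCL20, chr6:137867009-137867258 on the plus strand for TNFAIP3, chr4:73740319-73740568 on the plus strand for CXCL8 and chr4:74099196-74099445 on the minus strand for CXCL2.
CCL20: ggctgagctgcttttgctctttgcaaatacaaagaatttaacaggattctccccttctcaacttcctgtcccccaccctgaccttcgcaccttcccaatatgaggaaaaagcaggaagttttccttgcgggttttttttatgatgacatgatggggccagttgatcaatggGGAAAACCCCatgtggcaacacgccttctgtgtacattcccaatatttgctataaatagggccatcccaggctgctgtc
TNFAIP3: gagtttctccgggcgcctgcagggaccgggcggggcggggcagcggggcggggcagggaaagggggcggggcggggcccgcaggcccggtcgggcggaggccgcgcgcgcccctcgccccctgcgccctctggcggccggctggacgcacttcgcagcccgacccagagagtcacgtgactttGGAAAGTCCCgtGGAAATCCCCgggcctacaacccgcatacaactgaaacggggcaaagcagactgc
CXCL8: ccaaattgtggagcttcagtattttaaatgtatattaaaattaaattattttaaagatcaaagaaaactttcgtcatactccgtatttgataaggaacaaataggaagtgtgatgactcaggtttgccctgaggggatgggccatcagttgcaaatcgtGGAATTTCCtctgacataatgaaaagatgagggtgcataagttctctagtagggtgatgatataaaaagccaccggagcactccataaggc
CXCL2: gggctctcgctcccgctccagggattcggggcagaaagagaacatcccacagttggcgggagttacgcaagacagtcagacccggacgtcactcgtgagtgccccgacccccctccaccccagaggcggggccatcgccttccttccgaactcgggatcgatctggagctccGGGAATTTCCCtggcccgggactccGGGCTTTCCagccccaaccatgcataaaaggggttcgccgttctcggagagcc

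The marked stretch of CCL20, GGAAAACCCC, began 79 bases before the start, and that of CXCL8, GGAATTTCC, began 91 bases before it. TNFAIP3 held GGAAAGTCCC and GGAAATCCCC, beginning 67 and 55 bases before its start. CXCL2 held GGGAATTTCCC and GGGCTTTCC, beginning 78 and 53 bases before its start. All of these lie within 100 bases of the start, and CXCL8 alone of the 4 also held TGANTCA, the AP-1 motif, in its window.

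Promoters were matched by gene identifier for 44 of the 57 higher genes and for all 6 lower genes. CCL2, IER3, NFKBIE, OLR1, RELB, C11orf96, MIR21, NECAB1, GBP2, ETS1, GCH1, ZFP36L2 and CEBPD had no entry. At least 1 of the κB forms was present on either strand in 28 of the 44 (63.6%), against 24.5% of the 14484 promoters of genes on the array and 21.8% of all 27305 promoters of the same length. GGNNNTTCC was present in 26 (59.1%, against 18.9% of promoters of genes on the array) and the 10-letter consensus in 18 (40.9%, against 11.1%). The motifs overlap in sequence, and 16 promoters (36.4%, against 5.45%) held both. TGANTCA was present in 5 (11.4%, against 5.02%): CXCL8, TNFRSF9, AMIGO2, ANKRD1 and TENT5B. Of the 6 lower genes, the promoter of ID2 alone held a κB form. These are matches of letters and were not tested.

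Both 2 h arrays stood close together, with a correlation of 0.99 over all probe sets, a description of 1 pair of arrays, and array medians of 4.35 and 4.36. Pairs among 7 of the arrays had correlations from 0.96 to 0.99, while those of the array for 24 h of TNF-α ran from 0.89 to 0.92. The gap between the 3′ and 5′ ends of the GAPDH transcript, a usual sign of RNA quality, was 0.20 with BSA and 0.22 with TNF-α at 2 h and lay between 0.20 and 0.37 on the 7 arrays, but was 6.28 on TNF-α at 24 h. For ACTB the gap was wider, at 2.75 with BSA and 2.80 with TNF-α at 2 h. It lay between 2.59 and 3.47 on the 7 arrays and was 6.88 on TNF-α at 24 h. The 24 h pair is therefore left out of the main comparisons, and results that use it are named as such. The labels name no batch or scan time.

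Between the 2 h arrays most genes hardly differed. The median difference over all genes was -0.02, and the 1st and 99th percentiles were -0.32 and 0.45. The rule itself places all 57 higher genes above that 99th percentile. Of them, 28 were higher by at least 2, 14 by at least 3 and 7 by at least 4, and 22 lay between 1 and 1.5. With BSA at 2 h the brightest probe set lay below the array's median of 4.35 in 14 of the higher genes and above its upper quartile of 6.42 in 26, and it lay above that quartile in 4 of the 6 lower genes. The array's lower quartile was 3.42. For CCL20, TNFAIP3, CXCL8, CCL2 and CXCL10, which read 3.34 to 3.75 with BSA, background may set the control value, so their differences can be lower bounds. GBP2 and COXFA4L3 read 2.97 and 3.25 with BSA, also under the lower quartile. With TNF-α at 2 h they read 4.39 and 4.47, so their 2 h differences rest on dim readings. No detection calls were used.

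**Figure D1:**
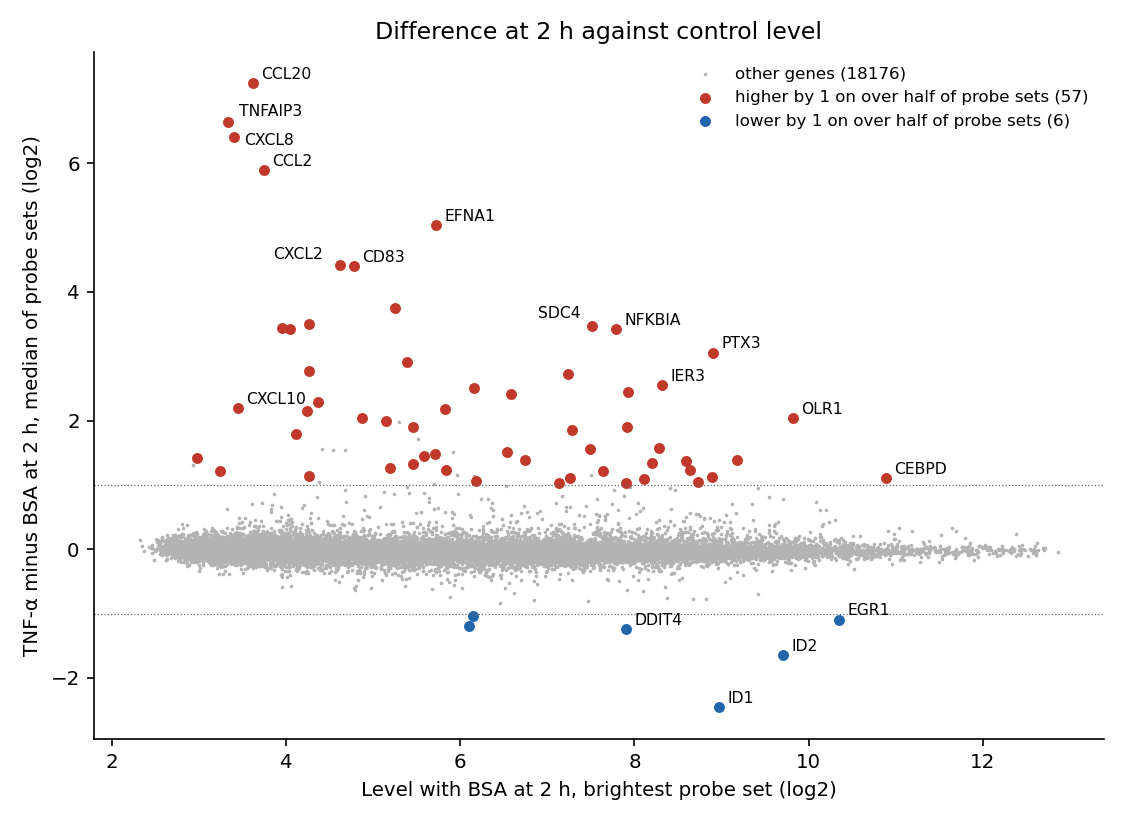
Difference at 2 h, TNF-α minus BSA as the median over the probe sets of a gene (log2, vertical axis), against the level with BSA at 2 h of the brightest probe set (log2, horizontal axis), 1 point per gene and 1 array per treatment. Red points are the 57 higher genes and blue points the 6 lower genes, dotted lines stand at 1 and -1, and grey points past a line did not have over 50% of their probe sets past it.

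Support by several probe sets was available for 33 of the higher genes, and in 21 of these every probe set was past 1. The other 24 rest on 1 probe set each, as do 4 of the 6 lower genes. CXCL8, the neutrophil chemokine also called interleukin 8, had differences from 4.80 to 7.88 over its 3 probe sets, and GBP1 had 1.24 to 2.74 over its 5. Some genes had a probe set near 0: for IRF1 the lowest of 4 was -0.02 and the highest 3.60, and for AMIGO2 the lowest of 5 was 0.01. TNFAIP2 spread most among the genes that passed with 5 probe sets, from 0.69 to 3.89.

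Just inside the rule lay ZFP36 at 1.03, ZC3H12C at 1.04, TENT5B at 1.04 and ZNF708 at -1.04. Just outside it by the median were RGS3 at 1.98 and CLDN1 at 1.55, each with 2 of 4 probe sets past 1, and PTGER4 at 1.71, with 1 of 2. The nearest genes on the lower side were VASN at -0.83, RASL11B at -0.81 and DUSP4 at -0.78. In all, 51 genes were higher and 3 lower by 1 on some but not over 50% of their probe sets. Among the former were LIF (2.69 on its brightest probe set), CXCL1 (2.72 on 1 of 2), CXCL3 (1.85 on 1 of 2), BCL3 (1.85 on 1 of 4), MAFF (1.92 on 1 of 2), MAP3K14 (1.32 on 1 of 2) and SOD2 (1.42 on 1 of 4), all familiar from inflammatory signalling. The 3 on the lower side were FOS, SOCS1 and SOX2.

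**Figure D2:**
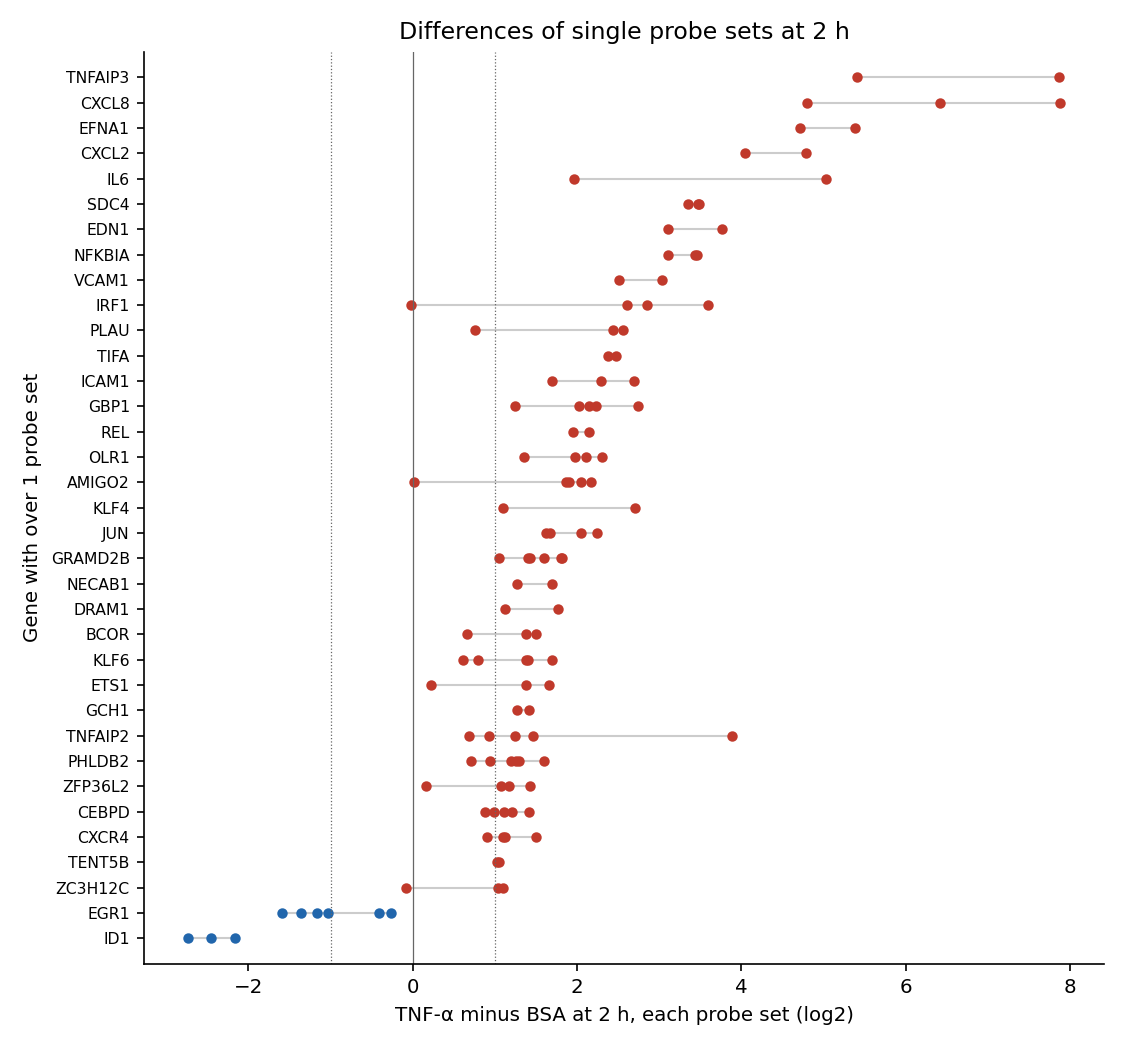
Difference at 2 h of every probe set (log2, horizontal axis) for the members with more than 1 probe set, 1 row per gene, 33 higher genes in red and 2 lower genes in blue, with a grey line from the lowest to the highest. Dotted lines stand at 1 and -1, and IRF1, AMIGO2 and ZC3H12C each show a probe set near 0 beside others past 1.

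The inhibitors of NF-κB signalling were among the genes with the largest differences. TNFAIP3, a ubiquitin-editing enzyme that ends receptor signalling, read 3.34, 3.32 and 3.26 with BSA at 2, 6 and 12 h and 11.21, 10.80 and 9.56 with TNF-α. Its median differences were 6.64, 6.20 and 4.94, and no TNF-α level came near a BSA level. NFKBIA, the IκB protein that holds NF-κB in the cytoplasm, read 7.79, 8.20 and 7.64 with BSA and 11.21, 11.32 and 10.79 with TNF-α. Its difference was 3.43 at 2 h, 3.15 at 6 h and 3.25 at 12 h, so the 3 values lay close together. NFKBIZ, a nuclear IκB protein, read 5.25, 4.93 and 5.30 with BSA and 9.00, 8.11 and 6.94 with TNF-α, a difference that shrank from 3.76 to 1.64. NFKBIE, a further cytoplasmic IκB, was higher by 2.19, 2.79 and 2.65. TNFAIP2, listed with these genes for its TNF inducibility, was higher by 1.24, 1.92 and 0.65. On its brightest probe set it was higher by 3.9, 3.9 and 2.9. TNFAIP3, NFKBIA, NFKBIZ, NFKBIE and TNFAIP2 were 5 of the 15 measured genes of the inhibitor and feedback list at 2 h. The list's median difference was 0.34, against -0.02 over all genes. TNIP1 (0.36), CYLD (0.25) and TNFAIP6 (0.01), not past the rule at 2 h, were at 2.36, 1.03 and 1.07 at 6 h.

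Among the NF-κB subunits the genes of 3 of the 5 were higher at 2 h. NFKB1 read 6.16, 6.76 and 6.67 with BSA and 8.67, 9.45 and 8.44 with TNF-α. RELB, the subunit of the alternative pathway, read 5.14, 5.41 and 5.04 with BSA and 7.14, 8.06 and 7.93 with TNF-α. RELB was furthest from its control at 12 h, by 2.89. REL behaved otherwise: it read 4.87, 3.95 and 4.46 with BSA and 7.02, 4.92 and 4.64 with TNF-α, so its median difference of 2.05 at 2 h was 0.59 at 6 h and 0.25 at 12 h. RELA was at 0.04 and NFKB2 at 0.32 at 2 h. None of the kinase genes on the list passed. Over the 13 subunits and kinases the median was 0.32.

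Receptor genes were mostly level at 2 h. TNFRSF1A, the receptor that TNF-α binds in most cells, read 7.41 with BSA and 7.39 with TNF-α. None of the 14 measured genes of the receptor complex and survival list passed the rule at 2 h, where their median was 0.02. RIPK2, TRAF1 and CFLAR were at 1.27, 1.90 and 1.08 at 6 h. RIPK1, TRAF2 and BIRC3, also on that list, had no probe set with 1 symbol alone and were not measured. TNFRSF9, a costimulatory receptor best known on T cells, was the exception in the superfamily list (1 of 15, median 0.15): it read 4.05, 4.03 and 3.62 with BSA and 7.47, 9.03 and 9.08 with TNF-α. TNF itself read 4.36 with BSA and 5.17 with TNF-α at 2 h, a difference of 0.81 that falls short of the rule. TIFA, an adaptor of innate immune signalling, was higher by 2.42, 1.74 and 1.29, and it was the only one of 13 pattern recognition and adaptor genes to pass (median 0.01).

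Chemokines were among the genes with the largest differences. CCL20, which attracts cells bearing CCR6, read 3.62, 3.66 and 3.79 with BSA and 10.87, 10.06 and 7.42 with TNF-α, differences of 7.25, 6.40 and 3.63. CXCL8 read 3.40, 3.48 and 3.44 with BSA and 11.28, 10.73 and 7.74 with TNF-α. CCL2, the main attractant of monocytes, read 3.75, 4.52 and 3.75 with BSA and 9.65, 10.48 and 8.85 with TNF-α. Its difference stayed between 5.09 and 5.96 at the 3 times, whereas those of CCL20 and CXCL8 had lost more than 3 by 12 h. CXCL2, another neutrophil attractant, read 4.62, 4.56 and 4.28 with BSA and 8.66, 6.90 and 5.10 with TNF-α, and by 12 h its median difference was 0.78. CXCL10, which attracts T cells and is best known as an interferon target, ran the other way: 3.45, 3.69 and 3.46 with BSA and 5.64, 10.52 and 10.42 with TNF-α, so its difference of 2.20 at 2 h was 6.82 at 6 h and 6.96 at 12 h.

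In the chemokine lists 2 of 7 neutrophil-attracting CXC genes, 1 of 3 interferon-inducible CXC genes and 2 of 9 CC and CX3C genes were higher at 2 h. Their median differences were 1.31, 0.23 and 0.13. CXCL1 and CXCL3 had medians of 1.51 and 1.31 but 1 of 2 probe sets past 1. CXCL1, CXCL2 and CXCL3 are close copies of each other and probes may be shared among them, so their split is uncertain. CXCL11 was at 0.23 at 2 h and at 3.52 and 4.64 later, and CCL5 at 0.11, then 2.57 and 4.18.

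Of 21 cytokine and growth factor genes 3 were higher at 2 h, and the list's median was 0.10. IL6, an inflammatory cytokine, read 4.27, 4.36 and 4.35 with BSA and 9.29, 8.85 and 6.89 with TNF-α on its brightest probe set, and its other probe set differed by 1.97 at 2 h. EDN1, the vasoconstrictor peptide endothelin, read 3.96, 3.80 and 3.66 with BSA and 7.72, 8.07 and 6.69 with TNF-α. IL32 was higher by 1.14 at 2 h and by 3.43 and 3.91 later. IL1A, IL1B and CSF3 differed from BSA by no more than 0.04 in size at 2 h.

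Of the adhesion molecules that hold leukocytes to a cell layer, VCAM1 and ICAM1 were higher by 2 h. VCAM1 read 4.26, 4.23 and 4.49 with BSA and 7.29, 8.86 and 8.26 with TNF-α. ICAM1 read 4.37, 4.23 and 4.18 with BSA and 6.66, 8.78 and 8.22 with TNF-α, a median difference of 2.30 at 2 h that was 4.56 at 6 h. They were 2 of 11 measured adhesion genes past the rule at 2 h, with a list median of 0.19, and 4 of 11 passed at 6 h and 4 at 12 h. CD44 and CD47, at 0.07 and -0.09 at 2 h, were at 1.25 and 1.23 at 6 h.

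Transcription factor genes of the immediate early kind gave a mixed picture. JUN, a subunit of AP-1, read 7.28 with BSA and 8.91 with TNF-α at 2 h, with differences of 1.86, 1.37 and 1.11 at the 3 times, and it was the only one of 11 AP-1 genes past the rule, where the list's median was 0.32. FOS was at -0.57 with 1 of 4 probe sets past -1. KLF4, a zinc finger factor of epithelial differentiation, was higher by 1.90, 3.42 and 2.74. KLF6 was higher by 1.38, 1.60 and 0.77, and BHLHE40, a repressor tied to the circadian clock, by 1.06, 0.96 and 1.22. IER3, an early response gene linked to cell survival, read 8.32, 6.19 and 5.32 with BSA and 10.88, 8.57 and 6.70 with TNF-α. Its level thus went down over time in each treatment while the difference passed the rule at each time, with 2.56, 2.39 and 1.38. On the list of EGR, IER, KLF and other immediate early genes 4 of 21 were higher and 1, EGR1, was lower, and the median was 0.11. None of the 18 MAP kinase phosphatase and Sprouty genes passed, and their median was 0.01.

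RNA-binding proteins that destroy cytokine mRNAs had 3 of 10 genes just past the rule at 2 h, with a list median of 0.05. ZFP36, which binds AU-rich elements, was higher by 1.03, 1.67 and 0.75. ZFP36L2, its relative, was higher by 1.12, 0.95 and 0.95, and ZC3H12C, of the regnase family, by 1.04, 0.66 and 0.39. ZC3H12A stood at 0.74 on its 1 probe set.

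Few interferon genes differed by 2 h. IRF1, a transcription factor shared by interferon and NF-κB signalling, read 7.24, 6.96 and 6.16 with BSA and 9.85, 9.51 and 8.32 with TNF-α, the only one of 11 genes of the interferon regulatory factor, STAT and SOCS list past the rule (median -0.03). GBP1 and GBP2, interferon-inducible GTPases, were 2 of 28 interferon-stimulated effector genes, whose median was 0.06. GBP1 read 4.24, 4.22 and 4.54 with BSA and 6.48, 10.17 and 9.12 with TNF-α. GBP2 was higher by 1.42, 3.01 and 3.18. The GBP genes resemble each other and may share probes. At 6 h 11 of the 28 were past the rule and at 12 h 17, with medians of 0.78 and 1.67. MX1, a marker of the interferon response, was at 0.05, 2.03 and 3.68. No gene of the class I antigen presentation list (13 measured) passed at 2 h, and 1 and 5 did later. IFNGR2, a chain of the receptor for interferon-γ, was higher by 1.22, 1.78 and 1.57.

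PTX3, the long pentraxin of innate defence, read 8.90, 8.92 and 8.55 with BSA and 11.96, 11.61 and 10.08 with TNF-α. It was the only one of 13 complement and acute phase genes past the rule at 2 h, where the list's median was 0.09, and 7 of the 13 passed at 6 h and 7 at 12 h. C3 was at -0.05 at 2 h and at 2.95 and 4.30 later. SOD2, the mitochondrial superoxide dismutase, was at 0.57, 2.93 and 3.22. PLAU, the urokinase protease, read 7.93, 8.01 and 7.63 with BSA and 10.49, 9.24 and 8.37 with TNF-α and was the only one of 11 protease genes to pass (median 0.06). No prostaglandin or oxidant enzyme gene (12 measured), mitosis gene (12) or oxidative phosphorylation gene (10) passed at 2 h, with medians of -0.01, -0.14 and -0.04.

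Several genes with large differences lay outside the lists. EFNA1, the ligand ephrin-A1, read 5.72, 5.92 and 5.79 with BSA and 11.11, 10.38 and 7.92 with TNF-α. CD83, a surface protein of activated immune cells, read 4.78, 4.71 and 4.84 with BSA and 9.18, 7.94 and 7.07 with TNF-α. SDC4, a heparan sulfate proteoglycan, read 7.51, 7.97 and 6.94 with BSA and 11.00, 11.01 and 9.14 with TNF-α. In all 3 the lowest TNF-α level stood above the highest BSA level. BAMBI, a pseudoreceptor that dampens TGF-β and BMP signals, read 5.39, 5.86 and 5.34 with BSA and 8.29, 7.12 and 6.29 with TNF-α, and it was the only higher gene of the 10 on the list of ID genes and BMP inhibitors (median 0.01). ETS1, the only one of 12 SOX and epithelial transcription factors to pass (median 0.04), was higher by 1.37, 2.52 and 1.73.

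A further set was modestly higher at 2 h and more so later. OLR1, a scavenger receptor, was higher by 2.04, 3.70 and 3.94. DRAM1, a lysosomal membrane protein, was higher by 1.45, 3.38 and 2.85, and NECAB1, a calcium-binding protein, by 1.48, 3.02 and 2.70. ANKRD1, a nuclear cofactor, was higher by 1.32, 3.15 and 2.51. GRAMD2B was higher by 1.51, 2.59 and 2.06, with all 6 of its probe sets past 1 at 2 h. COXFA4L3, a mitochondrial protein, was higher by 1.22, 3.66 and 3.89. The probe set that the platform assigns to MIR21 was higher by 1.55, 2.73 and 2.53. An array of this kind does not measure the mature miRNA.

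Others were highest at 2 or 6 h. AMIGO2, a cell adhesion protein, was higher by 1.90, 1.94 and 0.54, and GCH1, the first enzyme of tetrahydrobiopterin synthesis, by 1.34, 2.15 and 0.97. SIX4, a homeobox factor, was higher by 1.27, 1.40 and 0.92. PHLDB2, a protein of the cell cortex, was higher by 1.23, 1.34 and 0.98. CXCR4, the receptor for CXCL12, was higher by 1.11, 1.13 and 0.59, but by 0.81 at 2 h against the mean of 3 BSA arrays. CEBPD, a transcription factor of the acute phase, read 10.88 with BSA and 11.77 with TNF-α at 2 h on its brightest probe set, and its median was higher by 1.11, 0.89 and 0.90. UGCG, which makes glucosylceramide, was higher by 1.09, 0.74 and 0.71.

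**Figure D3:**
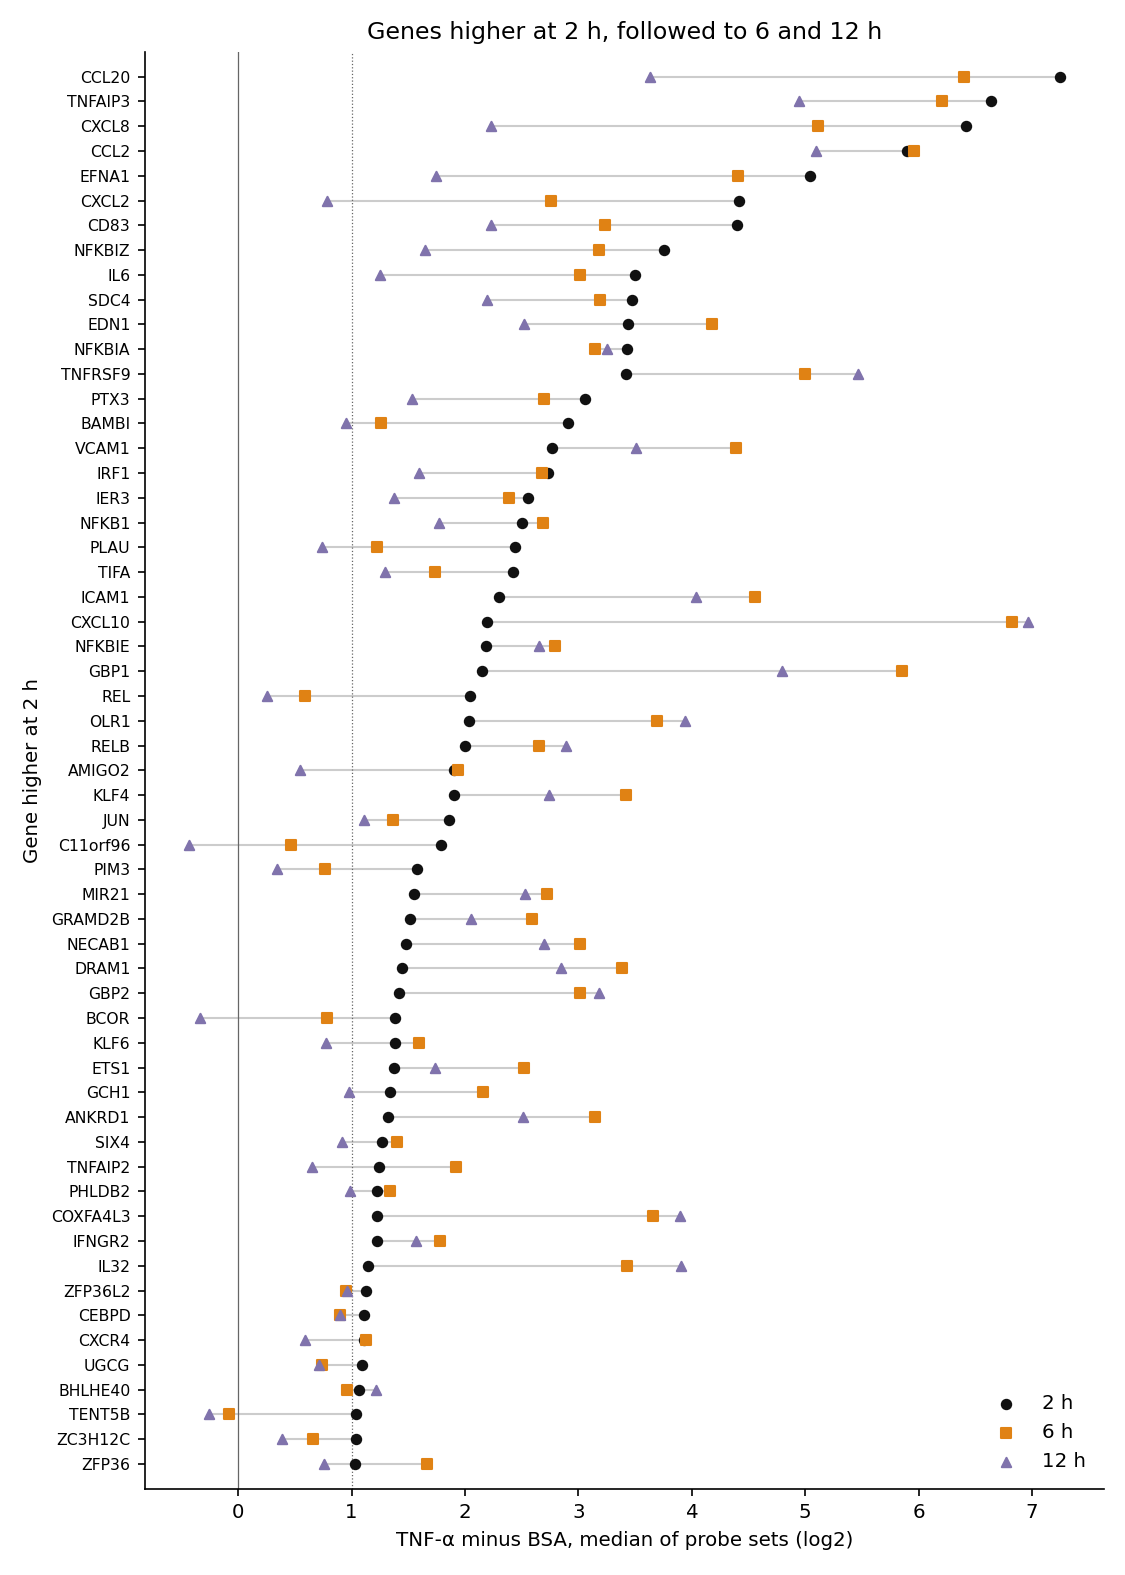
Median difference, TNF-α minus BSA (log2, horizontal axis), of the 57 genes higher at 2 h, 1 row per gene ordered by the 2 h value, with circles for 2 h, squares for 6 h and triangles for 12 h and 1 array per treatment and time. The dotted line stands at 1. CCL20, CXCL8 and CXCL2 have their triangle far to the left of their circle, and CXCL10, GBP1, COXFA4L3 and IL32 have it far to the right.

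The genes chosen at 2 h were then followed to 6 and 12 h, each with its own BSA array, which the choice had not used. The same rule was met by 47 of the 57 at 6 h (82.5%), against 0.861% of all genes, and by 36 at 12 h (63.2%), against 0.85%. At both times 35 passed, against 0.587% of all genes. Read from the later side, the 47 made up 29.9% of the 157 genes higher at 6 h, and the 36 made up 23.2% of the 155 higher at 12 h. The sign was kept more widely: 56 of 57 medians were above 0 at 6 h and 54 at 12 h. At 24 h, on the array with the wide 3′ to 5′ gap, 20 of the 57 (35.1%) met the rule, against 2.12% of all genes, and 2 of the 6 lower genes met theirs, against 5.08%.

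The differences of the 57 had their largest value at 2 h in 26 genes, at 6 h in 23 and at 12 h in 8. Over the 57 the median difference was 1.90 at 2 h, 2.69 at 6 h and 1.64 at 12 h, while over all genes it was -0.02, -0.01 and 0.01. Compared with 2 h, 16 differences were larger by over 1 at 6 h and 8 were smaller by over 1. At 12 h 11 were larger by over 1 and 21 were smaller by over 1. TNFAIP3, CCL2, NFKBIA, ICAM1 and CXCL10 were among the 35 that passed at all 3 times.

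The rule was met at 6 h and not at 12 h by 12 genes: CXCL2, IL6, BAMBI, PLAU, AMIGO2, KLF6, GCH1, SIX4, TNFAIP2, PHLDB2, CXCR4 and ZFP36. IL6 was among them because 1 of its 2 probe sets was under 1 at 12 h, although its median was 1.25. TNFAIP2, PHLDB2 and KLF6 also had some probe sets past 1 at 12 h: 2 of 5, 3 of 6 and 1 of 5. The brightest probe set of TNFAIP2 was still higher by 2.9 at 12 h. BHLHE40 met it at 12 h and not at 6 h, by a narrow margin. The 9 that met it at neither time were REL, C11orf96, PIM3, BCOR, ZFP36L2, CEBPD, UGCG, TENT5B and ZC3H12C. C11orf96 read 4.12, 4.46 and 3.82 with BSA and 5.91, 4.93 and 3.38 with TNF-α. PIM3, a kinase of cell survival, read 8.28, 8.20 and 7.86 with BSA and 9.86, 8.96 and 8.20 with TNF-α. BCOR, a corepressor, was at 1.38, 0.78 and -0.34, and TENT5B, a poly(A) polymerase, at 1.04, -0.08 and -0.26.

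A κB form was present in 19 of 26 promoters of genes kept at both times (73.1%), in 5 of 11 kept at 6 h alone (45.5%) and in 4 of 6 kept at neither (66.7%). With so few promoters a class, these shares are a description.

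A test was made on the values of the 4 arrays of 6 and 12 h with limma, with treatment as the effect and time as a factor. It used the brightest probe set of each gene. That probe set was chosen by its mean over all 8 arrays, the 2 h arrays included. The fit leaves 1 residual degree of freedom per gene and borrows the spread from all genes. Its p-values therefore set the size of the mean difference at 6 and 12 h against a spread mostly shared over genes. How alike the 2 differences of a gene were enters only in part. At an adjusted p under 0.05, 508 genes rose (2.79%) and 586 fell (3.21%). Of the 57 genes higher at 2 h, 53 rose (93%). With the mean of a gene's probe sets, which needs no such choice, 369 of the 18239 genes rose and 49 of the 57 were among them. CXCL10 rose by 6.89 ± 0.11 (SE; limma, adjusted p = 3.63e-08), the smallest p of all genes, and PIM3 had the largest p of the 53 with 0.55 ± 0.13 (adjusted p = 0.047). TNFAIP3 rose by 6.89 ± 0.23 (limma, adjusted p = 1.66e-06), CCL2 by 5.53 ± 0.19 (1.66e-06) and NFKBIA by 3.13 ± 0.11 (2e-06). CCL20 rose by 5.01 ± 0.49 (limma, adjusted p = 6.62e-04), with a wider error because its differences at 6 and 12 h lay far apart.

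Of the 9 genes kept at neither time by the size rule, PIM3, ZFP36L2, CEBPD, UGCG and ZC3H12C rose in this fit, by 0.55 to 0.98. REL (0.58 ± 0.18; limma, adjusted p = 0.114), C11orf96 (0.01 ± 0.19; 0.985), BCOR (0.14 ± 0.26; 0.862) and TENT5B (-0.33 ± 0.11; 0.166) did not pass. The calls depend on the model. With the 24 h pair added no gene passed in limma, the smallest adjusted p was 0.0798, and 43 of the 57 were higher at an unadjusted p under 0.05. Without time as a factor 20 of the 57 passed.

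The 6 lower genes were led by inhibitors of DNA binding, helix-loop-helix proteins that block differentiation factors and are classic targets of BMP signalling. ID1 read 8.97, 7.94 and 7.33 with BSA and 6.51, 4.42 and 5.23 with TNF-α. Its median differences over 3 probe sets were -2.46, -3.52 and -2.11. ID2 read 9.71, 8.54 and 7.92 with BSA and 8.06, 6.11 and 4.62 with TNF-α, and its difference widened from -1.65 to -2.43 and -3.30. ZNF708, a zinc finger gene, read 6.15, 5.57 and 5.35 with BSA and 5.11, 4.29 and 4.24 with TNF-α. These 3 genes met the rule again at 6 and at 12 h, when 0.181% and 0.296% of all genes were lower and 0.0822% at both. In limma on 6 and 12 h ID1 fell by 2.81 ± 0.27 (adjusted p = 5.5e-04), ID2 by 2.86 ± 0.19 (5.95e-05) and ZNF708 by 1.19 ± 0.11 (5.78e-04). With the 24 h pair added, or without time as a factor, none of the 6 passed in limma, and 3 were lower at an unadjusted p under 0.05 in each. ID3 and ID4, the other family members, were at 0.04 and 0.13 at 2 h. The 2 h calls depend on the control array. Against the mean of the BSA arrays at 2, 6 and 12 h, ID2 was at -0.66 and ZNF708 at -0.58, both under the rule, and ID1 was at -1.57.

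DDIT4, an inhibitor of mTORC1 signalling, was at -1.25, -0.54 and 0.12, FAM43A at -1.19, -0.62 and 0.07, and EGR1, an immediate early zinc finger factor, at -1.09, -0.08 and -0.20. None of these 3 met the rule at 6 or 12 h or passed in limma (adjusted p of 0.575, 0.437 and 0.248). At 24 h, on the array with the wide 3′ to 5′ gap, DDIT4 was at -3.05, and DDIT4 and ID2 were the 2 lower genes that met the rule there.

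EGR1 had a control that moved. It read 10.35 with BSA at 2 h and 5.35 and 5.59 with BSA at 6 and 12 h, against 9.33, 5.20 and 5.15 with TNF-α. Both 2 h levels thus stood well above the 4 levels of 6 and 12 h. At 24 h it was high again, at 9.46 with BSA and 8.62 with TNF-α. Set against the mean of the BSA arrays at 2, 6 and 12 h, EGR1 was at 1.21 at 2 h, the opposite sign, and FAM43A was at -0.17. With that control 4 of the 6 lower genes (EGR1, FAM43A, ID2 and ZNF708) lost the call, and ID1 and DDIT4 kept it. Of the 57 higher genes CXCR4 (0.81) and PHLDB2 (0.93) lost it, while IER3 (4.27), BHLHE40 (2.05), ZFP36 (1.74) and ZC3H12C (1.61) were over 1.5 times as far from the control. On brightest probe sets, BSA read at least 1 higher at 2 h than at 6 h for 4 of the 6 lower genes and for 3 of the 57 higher genes, against 0.965% of all genes. At 12 h it did so for 4 and 4, against 0.345%. The choice of genes used the same BSA value at 2 h and favours a high one in lower genes and a low one in higher genes. These counts are therefore not independent of the choice. Of the 21 immediate early genes listed, 8 were at least 1 higher at 2 h than at 6 h with BSA, and 10 than at 12 h. With TNF-α the counts were 10 and 12, and no share over all genes is given for TNF-α. What moved the controls was not tested.

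**Figure D4:**
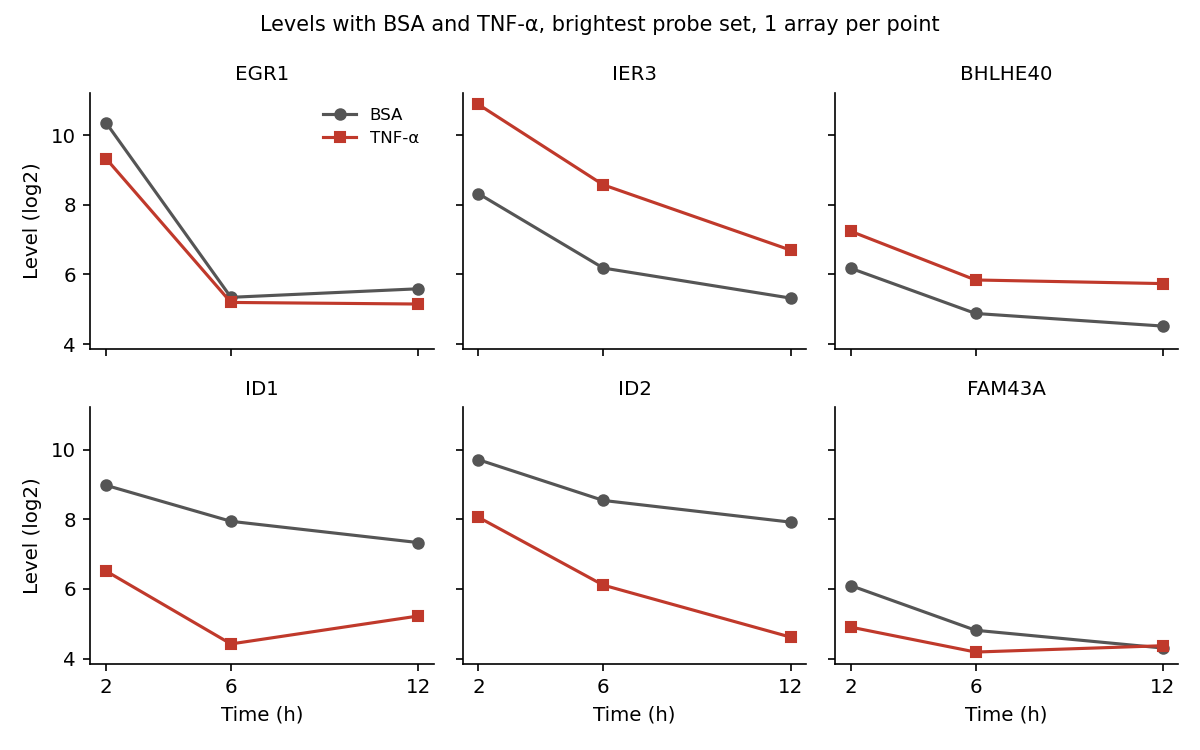
Level of the brightest probe set (log2, vertical axis) against time (h, horizontal axis) for EGR1, IER3, BHLHE40, ID1, ID2 and FAM43A, grey circles for BSA and red squares for TNF-α, 1 array per point. EGR1 goes from 10.35 to 5.35 with BSA between 2 and 6 h, the TNF-α line of IER3 stays above its descending BSA line, and the lines of FAM43A meet at 12 h.

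Across the 24 gene lists the share of members that were higher at 2 h, with lower genes not counted, was highest for the inhibitors of NF-κB and the interferon-inducible CXC chemokines, 5 of 15 and 1 of 3. The RNA-binding proteins followed with 3 of 10 and the neutrophil-attracting chemokines with 2 of 7. The 1 of 3 is CXCL10 alone. Lists of interferon-stimulated effectors and of complement and acute phase genes, with 2 of 28 and 1 of 13 at 2 h, had 17 of 28 and 7 of 13 at 12 h. Over all genes the share that was higher was 0.313% at 2 h and 0.85% at 12 h. Of the 63 genes 38 are on a list and 25 are not. Of 386 symbols on these and the marker lists 361 were measured, and the shares count those alone. The lists were drawn up with knowledge of earlier results and were not tested as sets.

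**Figure D5:**
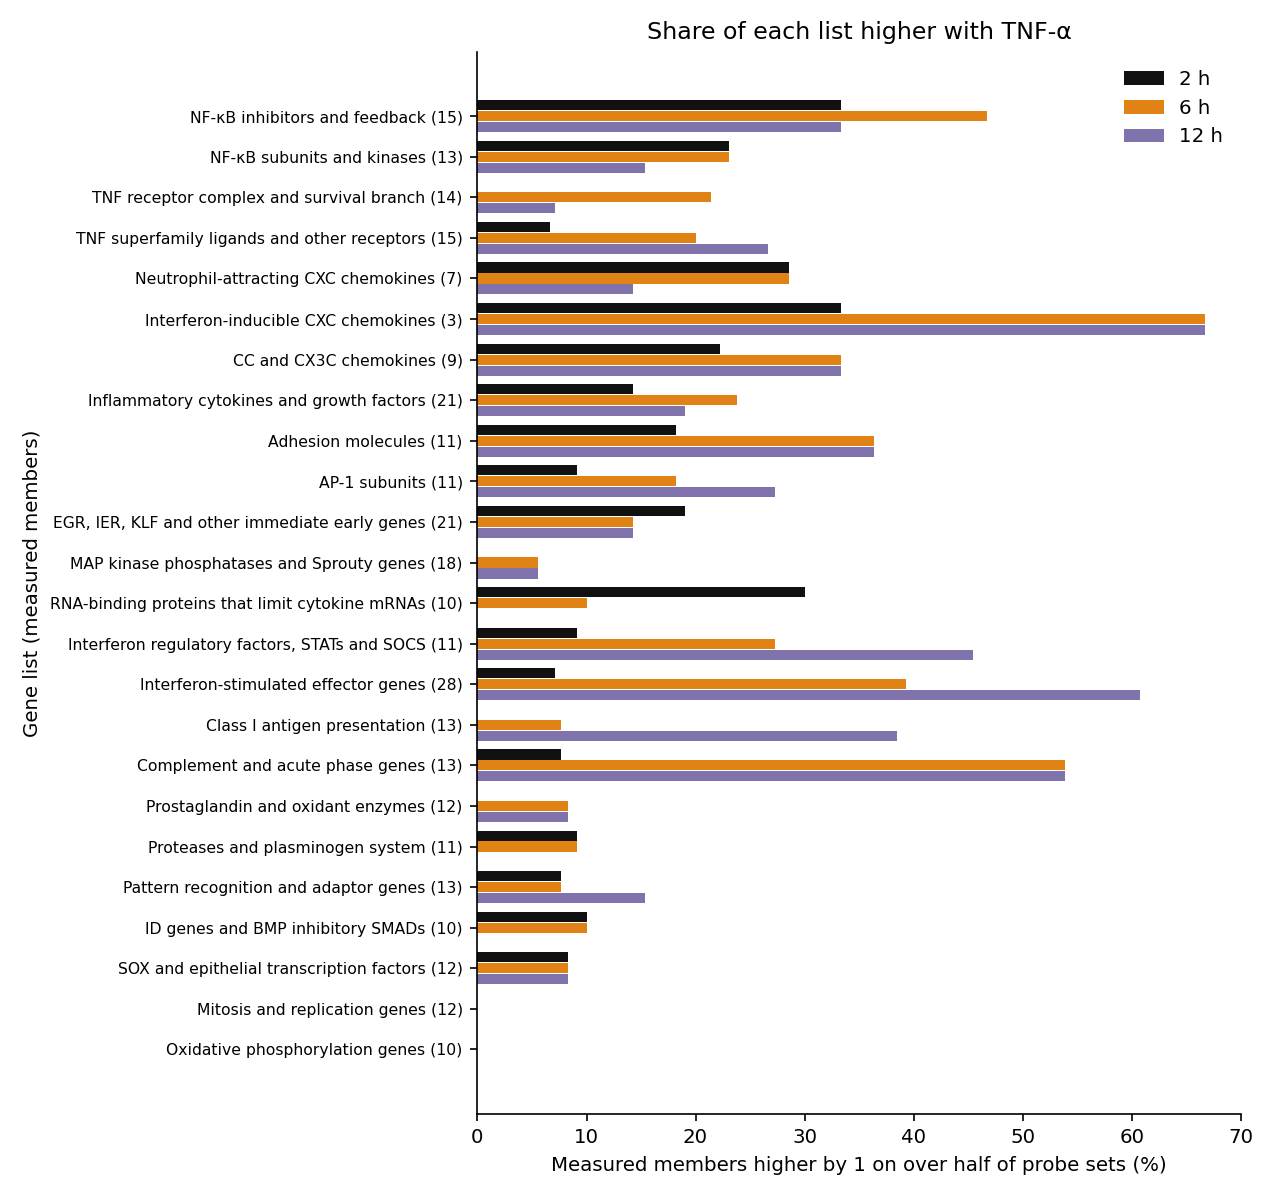
Percent of the measured members of each gene list that were higher by 1 on over 50% of their probe sets (horizontal axis), with black bars for 2 h, orange for 6 h and purple for 12 h, and the number measured in brackets. The bars of the NF-κB inhibitors are long at all 3 times, those of the RNA-binding proteins are longest at 2 h, and those of the interferon-stimulated effectors are longest at 12 h.

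The higher genes had shorter spans at the median than all genes. In RefSeq (GRCh38.p14), which matched all 63 by identifier, the median span from start to end of the gene was 9165 bases for the 57, 2780 bases for the 6 lower genes and 25696 bases for the 18177 genes matched. A span under 10000 bases was found in 30 of the 57 (52.6%), against 26.7% of all genes. It was 12890 bases at the median for the 35 genes kept at both times and 7831 for the 9 kept at neither. These spans were not tested.

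Marker genes were read on the same arrays, and none of any marker list passed the rule at 2 h. Of 14 salivary acinar markers, 12 read under the array median with BSA and with TNF-α at 2 h, among them AQP5, the water channel of acinar cells, at 4.06 and 4.13, and SLC12A2 (7.23 with BSA) and MUC5B were above it. Since probe sets differ in brightness, their place on an array does not show which of these genes were expressed, and the labelled cell type was not tested. Of 8 epithelial and duct markers 5 were under the median while KRT8 and KRT18 were above it, and of 7 fibroblast markers 2 were under it and COL3A1 read 9.40 with BSA. Leukocyte markers were under the median in 7 of 8, endothelial markers in 4 of 6 and myoepithelial or smooth muscle markers in 0 of 5. Log2 levels were summed over each list to set the 2 arrays side by side, and such a sum is not an amount of RNA. The summed levels were 52.8 with BSA and 53.1 with TNF-α for the acinar markers and 40.5 and 40.7 for the epithelial. They were 42.2 and 41.7 for the fibroblast and 27.10 and 27.05 for the leukocyte markers. The summed levels of the myoepithelial and endothelial markers were 24.7 and 24.6, and 22.9 and 23.5. In RNA from whole cultures a change in how many cells carry a transcript and a change in its level per cell cannot be told apart.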

How the data were processed

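Expression was measured on 8 Affymetrix GeneAtlas arrays, with 10 ng of TRIzol-extracted RNA per array labelled by a 3′ IVT kit, per the labels' protocols. Each deposited value is a log2 level of 1 probe set on 1 array, made with RMA per the submitters' processing notes. RMA corrects background, normalises by quantiles and summarises probes. Its software is not given in the sources used here, nor whether all arrays were normalised together. No further normalisation was applied. Arrays give no read depth, and their number limits the precision.

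The platform annotation gave 1 symbol to 45253 of 49386 probe sets, several to 1327 and none to 2713, and 93 were controls. Those with 1 symbol were used. TNF-α minus BSA was taken at each time and the size rule applied to probe sets. limma 3.58.1 in R 4.3.3 (lmFit, eBayes, two-sided, prior degrees of freedom 7.40) tested the arrays of 6 and 12 h, with Benjamini-Hochberg adjustment over 18239 genes and the brightest probe set per gene. The brightest probe set is the one with the highest mean over all 8 arrays. The code was tested on simulated data. Since no label speaks of separate cultures, the spread behind the p-values is only that between these arrays.

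The rule for names took the 20 largest rises and the 12 largest falls (6 passed), members on a gene list, up to 4 further genes a list, 4 of each class over time, and a few fixed genes. Members outside this rule are named to account for all 63, and other partly supported genes were named after their values were seen. The members and lists were chosen with earlier results of these data known. Alternatives were the support by probe sets, the size, a filter on dim probe sets, normalization, the control arrays and the model.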

Additional observations from a re-analysis of the deposited data

Results flagged for a closer look

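Some genes past the rule at 2 h had the opposite sign later. C11orf96 was higher by 1.79 at 2 h and at -0.44 at 12 h. BCOR was at 1.38 and then -0.34 at 12 h. TENT5B was at 1.04 at 2 h, -0.079 at 6 h and -0.26 at 12 h. Of the lower genes, DDIT4 went from -1.25 to 0.12 at 12 h and FAM43A from -1.19 to 0.066. Each rests on 1 array per treatment and time, and the difference between the times was not tested.

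Probe sets outside the gene tables also differed. Of 2713 probe sets with no symbol, 10 were higher by 1 at 2 h and 0 lower, and of 1327 with several symbols 6 were higher and 1 was lower. None of the 93 array controls was past 1.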

How the results depend on the processing

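The 57 higher and 6 lower genes were the same genes when arrays were centred on their medians or quantile normalised again. Requiring every probe set left 45 and 5 of them, while averaging the probe sets gave 68 and 5, of which 55 and 5 were shared. A filter on dim probe sets gave 79 and 8. The brightest probe set alone gave 90 higher genes (55 shared), of which 76 were kept at 6 h, 58 at 12 h and 57 at both. A size of 1.5 gave 33 higher genes, 26 kept at 6 h, 20 at 12 h and 20 at both, and 2 lower genes. The shares of all genes past these altered rules at 6 and 12 h are not given here. The kept counts under them therefore have no background to be read against. The mean of BSA at 2, 6 and 12 h as control gave 76 and 4 genes (55 and 2 shared). The mean of BSA at 6 and 12 h, a control chosen after seeing the data, gave 97 and 18 (53 and 2 shared). With that control FAM43A was at 0.35 and EGR1 at 2.50, and EGR1 was at 1.21 with the mean of the 3 BSA arrays, so these 2 signs turned. It put ID1, ID2 and ZNF708 at -1.12, -0.17 and -0.35, and of the higher genes CXCR4 (0.68), PHLDB2 (0.84), TNFAIP2 (0.92) and SIX4 (0.93) were under 1. In limma on 6 and 12 h the mean of probe sets left 369 genes higher in place of 508 and 261 lower in place of 586. With the 24 h pair added, 0 genes rose and 0 fell, so 0 of the 57 and 0 of the 6 were called (at an unadjusted p under 0.05, 773 higher and 564 lower). Without time as a factor 54 rose and 8 fell, 20 of the 57 and 0 of the 6 among them (unadjusted, 779 higher and 943 lower). Quantile normalisation and the dim filter left 52 and 53 of the 57 called. Over all genes, 460 of 18239 and 501 of 9861 rose with these settings. The cause of these changes was not tested. Leaving out the 6 or the 12 h pair leaves no residual degree of freedom, so there is no such fit. No paired analysis was possible because the labels carry no replicate number; the time factor sets each TNF-α array against the BSA array of its own hour, and the fit without it is given above.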

Other observations

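SOX2, a transcription factor of stem and progenitor cells, was lower on its brightest probe set alone. That probe set read 6.17 with BSA and 3.90 with TNF-α at 2 h, while the median over its 3 probe sets was -0.29. RGS3, a regulator of G protein signalling, read 5.29 with BSA and 9.03 with TNF-α on its brightest probe set, and 2 of its 4 probe sets differed by 1. CLDN1, a tight junction protein, was higher on its brightest probe set by 2.81 at 2 h, 5.73 at 6 h and 4.68 at 12 h. TNC, a matrix glycoprotein, was higher on its brightest probe set by 2.55, 4.56 and 3.61 at these times.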
